A study of Mus musculus with 6 samples.

Results

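The transcripts described here are those of 9 genes, namely Cd79a, Cd79b, Ms4a1, Cd22, Cr2, Fcrla, Fcer2a, Blk and Cd72. They encode the signalling part of the B cell receptor and antigens of the B cell surface, with 2 exceptions. Blk encodes a kinase that acts on the receptor, and the protein of Fcrla stays inside the cell. They were picked by symbol out of the 47729 genes counted in the files. The reason was that earlier results on these same libraries had shown B cell genes higher in KO than in WT. All 6 libraries came from lung cells enriched for ECs. All 9 passed the filter on low counts that left 14625 genes for testing. The libraries compared were 3 from WT mice and 3 from leene-KO mice. In the KO mice a region of the genome is deleted in all cells. Per the study, this region encodes 3 long noncoding RNAs, 1 of them leene. Both groups were male mice of 14 weeks on a C57BL6 background, and both received angiotensin II (AngII) at 1000 ng/kg/min from an osmotic pump for 2 weeks, so no library came from mice without AngII. Cells from lung were enriched for ECs, with CD31 named as the marker in the sample labels and CD144 in the study's methods. The labels speak of cells pooled from 3 mice in a group, so a library may stand for 1 mouse or for a pool, and p-values measure the spread between libraries, which may be technical.

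The B cell receptor is a membrane immunoglobulin that binds antigen, joined to a pair of CD79 chains that carry the signal into the cell. Src-family kinases such as BLK phosphorylate the CD79 tails, co-receptors such as CD21 lower the amount of antigen needed, and inhibitory receptors such as CD22 and CD72 recruit phosphatases that restrain the signal. In the lung, B cells lie in the blood, in the tissue and in lymphoid aggregates.

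The enriched cells carried transcripts of ECs and of other cells. Levels are given as CPM, the counts of a gene per 1000000 counts of its TMM-scaled library size. Pecam1 (CD31) lay between 313 and 582 CPM in the WT libraries and between 379 and 563 CPM in the KO libraries, and all 10 EC markers examined were detected. Libraries held between 24464324 and 35184063 counts, of which 37.4% to 54.5% fell on mitochondrial genes. The summed level of 5 alveolar type II markers was 4934, 46390 and 14404 CPM in WT replicates 1, 2 and 3. It ran from 36566 to 44951 CPM over the KO libraries. WT replicates 1 and 3 thus lay below the KO range and WT replicate 2 above it. Every pair of the 6 libraries differed by more than counting error. By a chi-square statistic per degree of freedom over all genes, WT replicate 2 was nearer to the KO libraries (48.4 to 80.4) than to WT replicates 1 (311) and 3 (218).

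Start regions from RefSeq were examined because these genes were higher together, and 6 of the 9 genes had an entry (Cd79a, Cd22, Cr2, Fcrla, Fcer2a and Cd72). In all, 4 motifs of B cell or general promoters were searched on both strands from 250 bases before to 50 bases after each start, over all 32851 RefSeq start regions of GRCm38.p6. The letters were CCCNNGGG, the core of the site of the B cell factor EBF, found in 13.7% of regions, ATGCAAAT for the octamer of immunoglobulin promoters (1.74%), GAGGAAGT for PU.1 (3.20%) and TATAAA for the TATA box (13.6%). The EBF letters occurred at Cd22, from 48 to 41 bases before the start, and the PU.1 letters on the opposite strand at Cd72, from 49 to 42 bases before it. TATAAA occurred 33 to 28 bases before the most upstream listed start of Fcer2a and downstream of the start of Fcrla, and no listed start region of the 6 genes held the octamer. A match is a run of letters and not a measured binding site. The sequences below run from 80 to 11 bases before the start, 5′ to 3′ on the strand of the gene, with the match in capitals. They show Cd22 with the EBF letters (chr7:30879039-30879108, minus strand, within introns of longer annotated Cd22 transcripts), Cd72 with the PU.1 letters as they read on the strand of the gene (chr4:43454637-43454706, minus strand), Fcer2a with the TATA letters (chr8:3694185-3694254, minus strand) and Cr2, which held none of the 4 motifs (chr1:195176730-195176799, minus strand).
Cd22: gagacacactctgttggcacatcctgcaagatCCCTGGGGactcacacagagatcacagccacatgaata
Cd72: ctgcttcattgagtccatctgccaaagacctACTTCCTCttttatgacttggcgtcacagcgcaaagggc
Fcer2a: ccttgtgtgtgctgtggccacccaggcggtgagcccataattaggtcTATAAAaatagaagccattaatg
Cr2: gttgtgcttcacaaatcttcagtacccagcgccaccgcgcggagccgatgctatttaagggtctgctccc

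All 9 genes were higher in the KO than in the WT libraries of lung cells enriched for ECs. The libraries of the groups did not overlap, as held for 8.59% of all genes tested. Fold changes ran from 2.75 for Cd72 to 6.47 for Ms4a1. Because the genes were chosen with this contrast known, these values describe the genes and support nothing about them. With edgeR's quasi-likelihood method and a limit of 0.05 on the p adjusted over all genes tested (Benjamini-Hochberg), 3 of the 9 passed as higher in KO (Cd79a, Ms4a1 and Fcrla), against 0.0342% of all genes tested. With DESeq2, the tool of the study, 7 of the 9 passed, all but Blk and Cd72, against 0.569% of genes. The number called in edgeR's test was 5 without WT replicate 1 (beside 24 of all 14958 genes tested) and 7 without WT replicate 2 (beside 791 of 14950). It was 0 of the 9 and 0 of all genes when any 1 of the KO libraries was left out, where 8 or 9 of the 9 and 986 to 1112 of all genes had an unadjusted p under 0.05, while all 9 log2 fold changes stayed above 0 in each of these fits. The median log2 fold change of the 9 genes was 2.30, beside 0.03 over all genes tested.

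**Figure D1:**
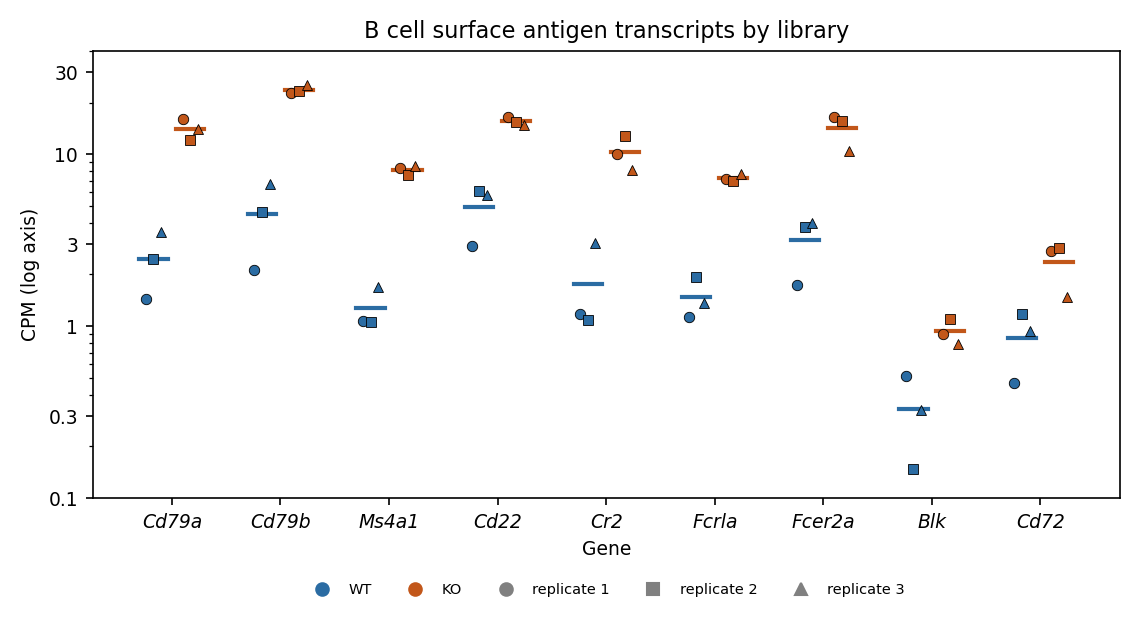
Levels of the 9 genes in CPM on a log axis, with WT libraries in blue, KO libraries in orange, the replicate number given by the marker shape and group means as bars. The KO points lie above the WT points of the same gene in every case, from 0.793 to 1.10 CPM for Blk up to 22.8 to 25.2 CPM for Cd79b.

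Cd79a and Cd79b encode the CD79 chains (Igα and Igβ), which form the signalling heterodimer of the receptor. Cd79a (ENSMUSG00000003379, chromosome 7, 24897381 to 24902197, plus strand, GRCm38) had WT levels of 1.44, 2.47 and 3.51 CPM and KO levels of 16.0, 12.1 and 14.1 CPM, each in the order of replicates 1, 2 and 3, as in all such series of values that follow. The WT mean was 2.47 ± 1.03 CPM and the KO mean 14.1 ± 1.94 CPM (SD, n = 3 each), a fold change of 5.78 with a 95% confidence interval of 3.50 to 9.56 from edgeR's fit. The lowest KO library thus stood well clear of the highest WT library. Cd79b (ENSMUSG00000040592, chromosome 11, 106311341 to 106314762, minus strand) had WT levels of 2.13, 4.61 and 6.74 CPM and KO levels of 22.8, 23.4 and 25.2 CPM. The KO libraries were close to each other for this gene, whereas the WT libraries were spread out, with replicate 1 lowest and replicate 3 highest, as for Cd79a. The fold change of Cd79b was 5.38 (95% confidence interval 2.99 to 9.68).

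The count of Cd79a over that of Cd79b in the same library needs no scaling between libraries. It was 0.678, 0.535 and 0.521 in WT and 0.702, 0.517 and 0.558 in KO. The groups overlapped, with a log2 difference (KO minus WT) of 0.03 (standard error 0.18, exact permutation test, two-sided, p = 0.8). The mean ratio of 0.578 ± 0.0870 in WT and 0.592 ± 0.0970 in KO (SD, n = 3 each) differed by less than the spread between replicates, and replicate 1 was the highest in each genotype.

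Cr2 encodes the complement receptor CD21, from which mouse B cells also make CD35, and CD21 works as a co-receptor of the B cell receptor. Cr2 (ENSMUSG00000026616, chromosome 1, 195136811 to 195176716, minus strand) had WT levels of 1.18, 1.09 and 3.04 CPM and KO levels of 10.1, 12.8 and 8.11 CPM. WT replicate 3 and KO replicate 3 came nearest to each other, and the fold change was 6.04 (95% confidence interval 3.11 to 11.7). Follicular dendritic cells also carry CD21. Of their other markers, Cxcl13 had a log2 fold change of 0.40 with overlapping groups, Madcam1 was at 0 counts in all but KO replicate 3, and the summed level of both was 4.28 to 4.73 CPM in WT and 4.28 to 8.57 CPM in KO.

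Ms4a1 encodes CD20, the target of rituximab, and had the highest fold change of the 9 genes. It (ENSMUSG00000024673, chromosome 19, 11249675 to 11266241, minus strand) had WT levels of 1.08, 1.06 and 1.69 CPM and KO levels of 8.30, 7.54 and 8.52 CPM. Both groups were narrow, at 1.27 ± 0.357 and 8.12 ± 0.513 CPM (SD, n = 3 each), and the fold change was 6.47 (95% confidence interval 4.40 to 9.52). Fcer2a encodes CD23, the low-affinity receptor for IgE. Fcer2a (ENSMUSG00000005540, chromosome 8, 3681737 to 3694175, minus strand) had WT levels of 1.74, 3.76 and 3.98 CPM and KO levels of 16.5, 15.6 and 10.4 CPM, a fold change of 4.53 (95% confidence interval 2.63 to 7.80). KO replicate 3 stood below the other KO libraries for Fcer2a, as it did for Cr2. Fcrla encodes a protein related to Fc receptors that stays inside the B cell. It (ENSMUSG00000038421, chromosome 1, 170917576 to 170927583, minus strand) had WT levels of 1.13, 1.94 and 1.36 CPM and KO levels of 7.18, 6.95 and 7.69 CPM, a fold change of 4.92 (95% confidence interval 3.31 to 7.33).

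Cd22 and Cd72 encode inhibitory receptors. Cd22 encodes a lectin that binds sialic acid and recruits the phosphatase SHP-1 (Ptpn6). Cd22 (ENSMUSG00000030577, chromosome 7, 30865402 to 30880342, minus strand) had WT levels of 2.94, 6.08 and 5.76 CPM and KO levels of 16.5, 15.4 and 14.9 CPM. The KO libraries were close together, at 15.6 ± 0.830 CPM against 4.93 ± 1.73 CPM in WT (SD, n = 3 each), and the fold change was 3.19 (95% confidence interval 2.06 to 4.92). Cd72, another lectin with an inhibitory tail (ENSMUSG00000028459, chromosome 4, 43446462 to 43454628, minus strand), had WT levels of 0.465, 1.17 and 0.937 CPM and KO levels of 2.75, 2.83 and 1.48 CPM. These values rest on 19 to 40 counts in WT and 43 to 77 in KO, and the fold change was 2.75 (95% confidence interval 1.34 to 5.68). The tail of Cd72 overlaps Tesk1 on the opposite strand, which had 393 to 891 counts. The counting used strand, but how many reads of Tesk1 fell on the wrong strand was not tested.

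Blk encodes a Src-family kinase of B cells that phosphorylates the CD79 tails. Blk (ENSMUSG00000014453, chromosome 14, 63372837 to 63417187, minus strand) rested on 21, 5 and 7 counts in the WT and 21, 30 and 23 in the KO libraries. As levels these were 0.514, 0.147 and 0.328 CPM against 0.903, 1.10 and 0.793 CPM. WT replicate 1 and KO replicate 1 held the same number of counts, so for this library pair the order rests on the library sizes alone. The fold change was 2.78 (95% confidence interval 1.17 to 6.61), and its log2 value ran from 1.07 without WT replicate 2 to 2.01 without WT replicate 1.

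**Figure D2:**
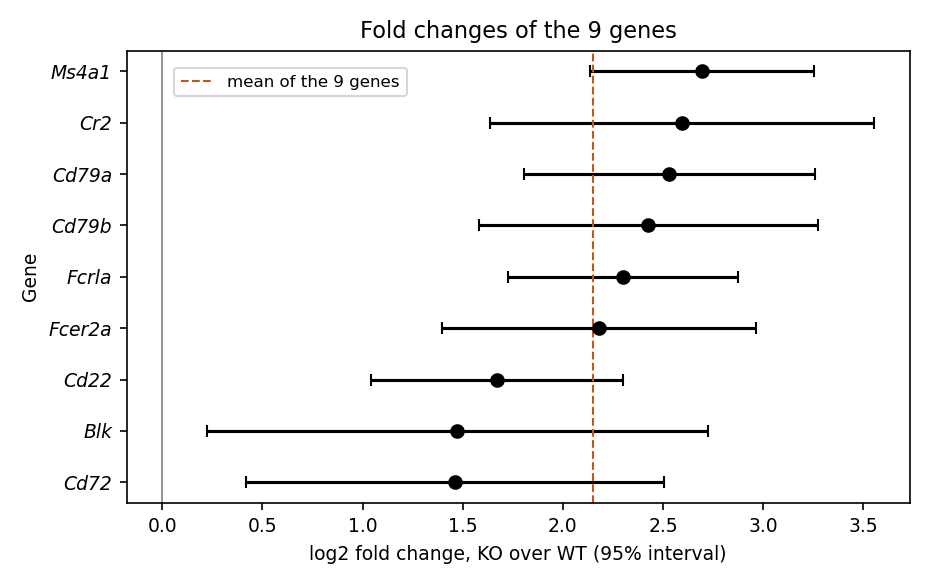
Log2 fold change (KO over WT) of each gene from edgeR's fit, with points for the estimate, bars for the 95% confidence interval from 3 libraries a group and a dashed line at the mean of the 9 genes. Estimates run from 1.46 for Cd72 to 2.69 for Ms4a1, and every interval lies above 0 and overlaps the others.

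Levels of different genes were compared per length of exons, as RPKM. In KO the order from the top was Cd79b (16.6 ± 0.885 RPKM), Cd79a (9.65 ± 1.33), Fcer2a (4.58 ± 1.06), Fcrla (4.17 ± 0.217), Cd22 (3.13 ± 0.166), Ms4a1 (1.31 ± 0.0829), Cr2 (1.29 ± 0.296), Cd72 (0.688 ± 0.221) and Blk (0.377 ± 0.0636), each as mean RPKM with SD over 3 libraries. Of the 8 neighbouring pairs in this order, 6 were further apart than the larger of their SDs, and the exceptions were Fcer2a with Fcrla and Ms4a1 with Cr2. In WT the CD79 chains also led, with Cd79b at 3.14 ± 1.61 RPKM and Cd79a at 1.70 ± 0.710 RPKM, and Blk was lowest at 0.133 ± 0.0742 RPKM. The order in WT was less firm, as only Fcrla (0.845 ± 0.240 RPKM) and Cd72 (0.251 ± 0.106 RPKM) were neighbours further apart than their SDs. Cd22 stood above Fcrla and Cd72 above Cr2 and Ms4a1 in WT, the reverse of KO, but by less than their SDs.

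Summed over the 9 genes, the WT levels were 12.6, 22.3 and 27.3 CPM and the KO levels 100.9, 97.8 and 91.2 CPM. On this scale the KO libraries were alike and the WT libraries were not. The TMM factors behind these levels were 1.37, 0.969 and 0.874 in WT replicates 1, 2 and 3. They ran from 0.890 to 1.04 over the KO libraries. How far the order of the WT libraries rests on these factors was not tested. WT replicate 1 was the lowest WT library for 6 of the 9 genes and replicate 3 the lowest for 0 and the highest for 5. KO replicate 3 was the lowest KO library for 5. In bulk RNA, more cells of a type and more RNA of these genes in each cell cannot be told apart.

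Whether the 9 genes rose by 1 common factor was examined next. A change in the share of B cell RNA alone would move them all by the same factor if their transcripts came only from B cells. It would also need an unchanged mix of B cells, and neither condition was tested. In each library, the mean log2 CPM over the 9 genes was subtracted from each gene, and the KO minus WT differences that remained were squared and summed. The sum was 2.03, and an exact permutation test over the 20 ways to assign the libraries gave p = 0.1, the smallest that 3 against 3 libraries allow, so the test could not reach 0.05. The SD of the 9 log2 fold changes was 0.49 about a mean of 2.15. Without Blk it was 0.45 and without Blk and Cd72, the genes with the fewest counts, it was 0.34, sets chosen after the values were seen and not tested.

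Each gene's departure from the common factor is a log2 difference between KO and WT. The log2 difference of Ms4a1 was above the mean of the 9 by 0.48 (standard error 0.19), that of Cr2 by 0.48 (standard error 0.34), Cd79a by 0.39 (standard error 0.18) and Cd79b by 0.38 (standard error 0.27). Fcrla and Fcer2a were close to the mean, at 0.13 (standard error 0.28) and 0.04 (standard error 0.22). Below it were Cd22 at -0.44 (standard error 0.17), Blk at -0.72 (standard error 0.58) and Cd72 at -0.74 (standard error 0.32). For Ms4a1, Cd22 and Cd72 the groups did not overlap after the mean was subtracted (exact permutation p = 0.1 for each, 0.3 after Benjamini-Hochberg adjustment over the 9), and for the other 6 they did. None of the departures passed the threshold.

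The same counts were also set against each other as plain ratios, which involve no scaling. The ratio of Cd79a to Cd22 was 0.492, 0.406 and 0.610 in WT and 0.969, 0.783 and 0.947 in KO, a log2 difference of 0.85 (standard error 0.20). Every KO ratio was thus above every WT ratio. The ratio of Cd79a to Cd72 was 3.11, 2.10 and 3.75 in WT and 5.81, 4.27 and 9.49 in KO, a log2 difference of 1.10 (standard error 0.41). Cd22 and Cd72, the inhibitory receptors, differed from each other by 0.25 (standard error 0.28, overlapping groups), while Fcer2a over Cd72 differed by 0.74 (standard error 0.15) and Cd22 over Fcer2a by -0.49 (standard error 0.18). Of the 36 pairs among the 9 genes, 14 had groups that did not overlap, each at an exact permutation p of 0.1 and 0.257 after Benjamini-Hochberg adjustment over the 36. Here too 0.1 is the smallest p possible, so no pair could reach 0.05. Pairs that share a gene are not independent of each other, and 22 pairs overlapped.

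**Figure D3:**
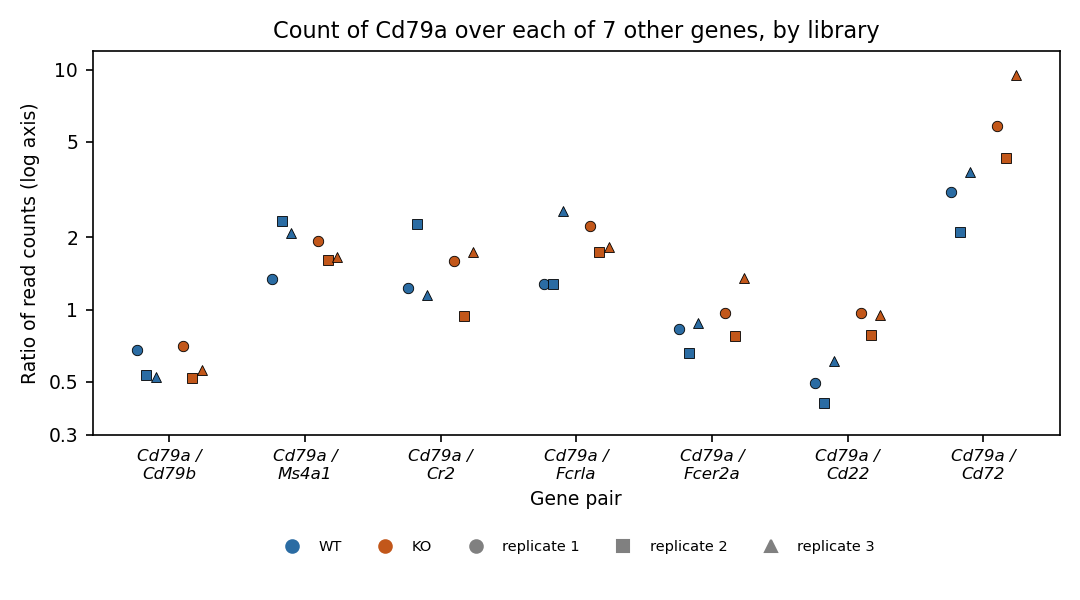
Read count of Cd79a divided by that of 7 of the other genes in each library, on a log axis, with WT in blue and KO in orange and replicates by marker shape (Blk, with 5 to 30 counts, is left out). The ratios to Cd79b overlap at 0.517 to 0.702, while those to Cd22 and Cd72 are higher in all 3 KO libraries.

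As a share of the summed counts of the 9 genes, Cd22 took 23.3%, 27.2% and 21.1% in WT and 16.4%, 15.8% and 16.3% in KO. The Wilson 95% intervals of the WT shares began at 17.949% at the lowest, just above the 17.905% at which those of the KO shares ended at the highest. These intervals cover counting error only. A model with 1 factor for each library and 1 level for each gene left a Pearson statistic per degree of freedom of 7.53, where counting error alone gives about 1. It was 14.9 for the part between genotypes and 5.35 for the part within genotypes, the latter being 4.61 in WT and 6.09 in KO. Separate libraries exceed counting error in any case, so these values describe the spread and test nothing.

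Other genes of the receptor pathway were taken from 3 lists with 50 genes, of which 49 were tested. None passed edgeR's quasi-likelihood test after adjustment (0 of the 49), and at an unadjusted p under 0.05 there were 15 higher and 2 lower in KO, beside 5.62% and 4.68% of all genes tested. DESeq2 called 8 as higher and 0 as lower. The median log2 fold change of the 49 was 0.35, and 36 were above 0, beside 54.1% of all genes tested.

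The 21 signalling genes behind the receptor had a median log2 fold change of 0.20, and 11 were above and 10 below 0. DESeq2 called 2 of them as higher in KO, among them Ptprc (DESeq2 adjusted p = 0.00106), which was at 1.58 in edgeR's fit. Log2 fold changes of list genes are those of edgeR's fit, also beside a DESeq2 call. Ptprc encodes the phosphatase CD45, carried by all leukocytes. The kinases that act on and after the CD79 chains had small values of either sign, with log2 fold changes of -0.33 for Syk, 0.34 for Lyn and -0.28 for Btk, and the adaptor Blnk was at 0.31. The adaptor Pik3ap1 was at -0.35 with overlapping groups. Most of these genes are also used by other leukocytes, and some by ECs.

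Of the 13 tested inhibitory genes, 10 were above 0, with a median log2 fold change of 0.37. Siglecg, a lectin of the B cell surface related to Cd22, was the highest at 1.95 (standard error 0.54, DESeq2 adjusted p = 0.028) and the only one that DESeq2 called. The phosphatase gene Inpp5d (SHIP-1) was the lowest at -0.52 (standard error 0.15), with every KO library below every WT library, and Ptpn6, the phosphatase that CD22 recruits, was at -0.10 with overlapping groups. The inhibitory side of the pathway thus held genes far apart in their fold changes.

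All 15 other surface genes of B cells were above 0, with a median of 0.97. DESeq2 called 5 of them as higher in KO, among them Fcmr, the receptor for IgM, at a log2 fold change of 2.83, Cd69, an early activation antigen, at 1.76, the lymphotoxin gene Ltb at 1.66 and Cd180, a partner of Toll-like signalling, at 1.58. The lowest was Tnfrsf13b (TACI) at 0.10, with 2.64 ± 0.693 CPM in WT and 2.83 ± 0.860 CPM in KO (SD, n = 3). Cd69 and Ltb are also expressed by T cells.

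The relatives of the 9 genes in their gene families had medians nearer to 0. The 9 other Ms4a genes had a median log2 fold change of 0.04, from -0.71 for Ms4a6d to 1.76 for Ms4a4c, and the 7 other Src-family kinases had 0.03, from -0.53 for Fyn to 0.56 for Lck. Other lectins of the Siglec family had a median of 0.29, from -0.74 for Cd33 to 1.95 for Siglecg, and other complement receptors and regulators 0.41, from -0.72 for Cd46 to 0.85 for Cd55. In edgeR's test 0 of the 28 tested genes of these families passed, with 3 at an unadjusted p under 0.05 as higher and 1 as lower in KO, beside 5.62% and 4.68% of all genes tested, and DESeq2 called Siglecg alone.

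**Figure D4:**
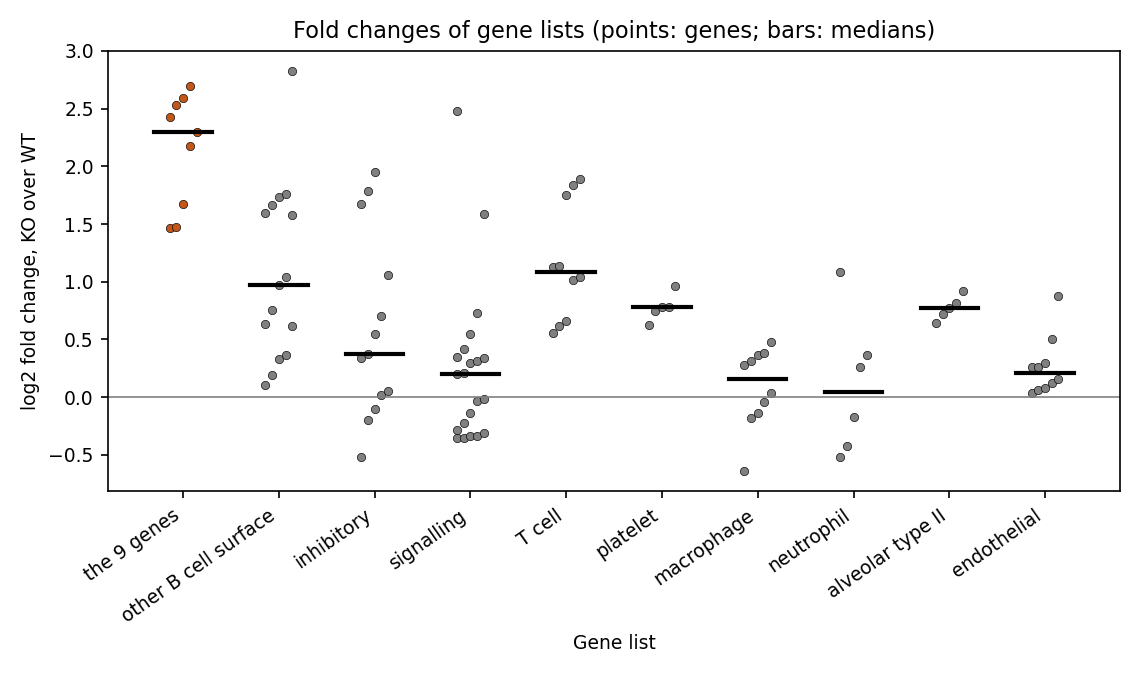
Log2 fold change (KO over WT) of each tested gene in the 9 genes, in 3 lists of pathway genes and in marker lists of other cells, with points for genes and bars for list medians. The medians are 2.30 for the 9 genes, 0.97, 0.37 and 0.20 for the pathway lists, 1.08 for T cells, 0.78 for platelets, 0.77 for alveolar type II cells and 0.21 or less for macrophages, neutrophils and ECs.

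Markers of B cells and of other cells were set beside the 9 genes. The 15 other B cell markers were all above 0 (median log2 fold change 1.04), and their summed level was 161 to 291 CPM in WT and 437 to 545 CPM in KO. Most of this sum came from the immunoglobulin genes Ighm and Igkc. Ighm was at 78.0 to 138 CPM in WT and 195 to 262 CPM in KO. Igkc was at 43.0 to 109 CPM in WT and 109 to 140 CPM in KO. DESeq2 called 5 of the 15 markers, among them Fcmr, Ly6d, Ighd (2.78) and Ighm (1.11). Ebf1, which other cells of the lung also express, was lowest at 0.20. For 9 of the 15 every KO library lay above every WT library, beside 8.59% of all genes tested. For the other 6 the groups overlapped, among them Ebf1, Bank1 (0.42), Pou2af1 (0.53), Vpreb3 (0.58) and Igkc (0.85). The 10 tested T cell markers were all above 0 as well (median 1.08), with a summed level of all 12 of 6.49 to 14.0 CPM in WT and 16.0 to 25.7 CPM in KO. Plasmacytoid dendritic cell markers had a median of 0.86 and a summed level of 3.18 to 8.93 CPM in WT and 9.42 to 11.05 CPM in KO. Platelet markers summed to 27.7 to 42.4 CPM in WT and 38.1 to 76.0 CPM in KO, with a median of 0.78. The part of these cells and of the mitochondrial share in the values of the 9 genes was not tested.

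Lists of other leukocytes had smaller medians. The medians were 0.16 for 10 macrophage markers, 0.04 for 6 neutrophil markers and 0.02 for 5 dendritic cell markers, and the summed macrophage markers overlapped at 138 to 349 CPM in WT and 180 to 437 CPM in KO. Plasma cell markers had a median of 0.61 and sums of 205 to 700 CPM in WT and 502 to 566 CPM in KO. Sdc1 and Xbp1 made up most of these sums. Sdc1 was at 85.8 to 526 CPM in WT and 370 to 438 CPM in KO. Xbp1 was at 96.8 to 138 CPM in WT and 86.8 to 94.2 CPM in KO. For Xbp1 (-0.34) and Irf4 (-0.77) every KO library lay below every WT library, and for Prdm1 (0.95) every KO library lay above. The NK cell list had 2 tested genes, with a median of 0.50. All 10 EC markers were above 0, with a median of 0.21 and sums of 1611 to 2998 CPM in WT and 1974 to 3175 CPM in KO. In edgeR's test 0 genes of all these marker lists passed. At an unadjusted p under 0.05 there were 9 of the 15 B cell markers, 5 of the T cell markers, 4 of the platelet markers and 1 each of the plasma cell, dendritic cell, neutrophil and EC markers, all higher in KO, beside 5.62% of all genes tested, and DESeq2 called none outside the B cell list.

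The genes most like the 9 in their pattern over the 6 libraries were found by the root mean square difference between log2 CPM centred on the gene and the centred mean of the 9. The nearest were H2-DMb2 (0.205), which encodes a chain that loads peptides on MHC class II, Gm128 (0.208), Ly6d (0.241), Col20a1 (0.251), Ltb (0.276), Cd69 (0.309), Spn (0.324) and Ptprcap (0.330), where each number is that difference in log2 units over 6 libraries. Their log2 fold changes ran from 1.66 for Ltb to 2.96 for Gm128. They were picked for likeness to a mean that was higher in KO, so values above 0 follow from the choice. Gm128 had at most 0.621 CPM and Col20a1 at most 0.993 CPM. Ly6d marks early and mature B-lineage cells, Spn encodes the leukocyte mucin CD43 and Ptprcap a partner of CD45. Each of the 9 is itself part of that mean. Among all tested genes ranked in this way, Fcer2a came at place 3, Cd79a at 6, Cd22 at 8, Fcrla at 9, Ms4a1 at 10 and Cd79b at 13. Cr2 was at place 32, Cd72 at 60 and Blk at 285, so the pattern of Blk was the least like the mean of the 9.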

How the data were processed

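The authors deposited raw read counts per gene, 1 table for each of the 6 libraries, without normalization. Per the file headers, reads with a unique alignment were counted over exons by featureCounts of Subread 2.0.0, on the reverse strand, with the Ensembl release 84 annotation of GRCm38, and the submitters' processing notes also name bcl2fastq 2.18 and STAR 2.5.4b. With such counting, reads that align to several places are lost. Symbols came from GENCODE for the same build (47224 of 47729 genes), and gene spans and exon lengths from the count tables.

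Groups were taken from the sample labels. The 9 genes and the gene lists were chosen with earlier results of these data known, so their KO against WT values are a description. Low counts were removed with filterByExpr, libraries were scaled by TMM, and KO was tested against WT with genotype as the only term by the quasi-likelihood test of edgeR 4.0.16 in R 4.3.3 with Benjamini-Hochberg adjustment over all genes tested (threshold 0.05). The script was tested on simulated data. CPM used the TMM-scaled sizes and RPKM the summed exon length. The common-factor test used log2 CPM with a prior count of 2, and ratios had 0.5 added to both counts for the log2 differences. Total counts of 24464324 to 35184063 make 3 counts equal to 0.0853 to 0.123 CPM on unscaled totals, and confidence intervals on shares cover counting error only. The text names the 9 genes, every list gene called by edgeR or DESeq2, the highest and lowest of each pathway and family list and the 8 genes most like the 9, except a few genes that are not reported here. Other list genes (Syk, Lyn, Btk, Blnk, Ptpn6, Ighm, Ebf1, Cxcl13, Madcam1 and Pecam1) were named for their roles. Bank1, Pou2af1, Vpreb3 and Igkc were named as B cell markers with overlapping groups. Sdc1, Xbp1, Irf4 and Prdm1 were named to describe the plasma cell list.

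The alternatives were DESeq2 1.42.0, limma-voom (limma 3.58.1), edgeR's likelihood ratio test, other scalings and filters, the replicate number as a block, and each library left out in turn. The option legacy set to FALSE and the spread without Blk and Cd72 were added after the data had been seen. RefSeq had no start region for Cd79b, Ms4a1 and Blk in the table used here.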

Additional observations from a re-analysis of the deposited data

How the results depend on the processing

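The log2 fold changes of the 9 genes stayed above 0 in every setting tried, and with each library left out in turn they ran from 2.24 to 2.84 for Cd79a, 2.07 to 2.82 for Cd79b, 2.55 to 2.90 for Ms4a1, 1.39 to 1.84 for Cd22, 2.32 to 3.17 for Cr2, 2.11 to 2.53 for Fcrla, 1.87 to 2.36 for Fcer2a, 1.07 to 2.01 for Blk and 1.14 to 1.76 for Cd72. The number of genes called did not hold. Beside 16 genes over all tested, 3 of the 9 and 0 of the pathway lists, DESeq2 called 187, 7 and 8, limma-voom 26, 4 and 1, the likelihood ratio test 211, 7 and 9, RLE scaling 26, 3 and 0, upper-quartile scaling 31, 5 and 0, total counts 123, 7 and 7, total counts without mitochondrial genes 114, 7 and 7, and no filter on low counts 152, 7 and 7. A minimum of 10 counts in every library gave 14, 2 and 0 and left out Blk, and legacy set to FALSE gave 22, 3 and 0. The cause of these differences was not tested. With total counts and total counts without mitochondrial genes the median log2 fold change of all genes moved from 0.03 to -0.13 and -0.18, and that of the 9 genes from 2.30 to 2.17 and 2.13. With 1 library left out, the calls ran from 0 to 791 over all genes, from 0 to 7 of the 9 and from 0 to 6 of the pathway lists, the highest being those without WT replicate 2 and the 0 of all genes and of the 9 those without any KO library.

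Deviations of same-numbered libraries from their group means had Pearson correlations across genes of -0.08, 0.22 and 0.01 for numbers 1, 2 and 3. Those of WT and KO libraries with unlike numbers ran from -0.18 to 0.19. These values cannot settle whether the numbers pair the samples. With the replicate block, edgeR's test called 0 genes over all tested, 0 of the 9 and 0 of the pathway lists, where 1776 genes, all 9 genes and 18 pathway genes had an unadjusted p under 0.05. The common-factor sum was 2.03 with an exact p of 0.25 under the replicate block, the smallest that 3 pairs allow. Under the other alternatives it ran from 1.63 to 3.02, with an exact p of 0.1 to 0.3. In the settings with 1 library left out, 0.1 is again the smallest possible p. Depth limits Blk and Cd72 most, with 5 to 40 counts in each WT library.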
